A study of Mus musculus with 16 samples.

Results

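Rtp1, Rtp2, Reep1, Stoml3 and Umodl1 are 5 genes of olfactory sensory neurons that serve the transport of odorant receptors or the membrane of the olfactory cilia. They were taken by gene symbol from the 19505 genes measured, and each has 1 probe set on the array. RNA came from dissociated olfactory mucosa of mice with the S100a5-tauGFP reporter, whose cells were sorted by flow cytometry into a GFP+ and a GFP- fraction and hybridised to Clariom S arrays. The reporter ties tauGFP, a microtubule-bound green fluorescent protein, to S100a5, which encodes a calcium-binding protein and is transcribed more when a sensory neuron is active. There were 4 groups of 4 arrays: vehicle GFP+, vehicle GFP-, octanol GFP+ and octanol GFP-, each array holding 1 fraction of a pool of 3 mice. All animals, 24 of both sexes aged 7 to 12 weeks, carried the reporter and spent 40 h singly in a chamber with clean air flowing at 3.1 L/min. From 26 h on they received pulses of 10 s every 20 min, of octanol (an alcohol with a chain of 8 carbons) or, in the vehicle groups, of filtered air. The labels do not list which animals make up a pool, and the GFP- fraction is every cell without the reporter's fluorescence, neurons included.

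An odorant receptor made in the endoplasmic reticulum of most cell types does not reach the cell surface, and olfactory sensory neurons carry accessory proteins that help it there. RTP1 and RTP2, the receptor transporting proteins, bind odorant receptors and promote their delivery to the plasma membrane, and REEP1, a membrane-shaping protein of the endoplasmic reticulum, was found alongside them as a weaker helper. STOML3, a stomatin-like protein, lies in the cilia where odour transduction takes place, and UMODL1, also called olfactorin, is a zona pellucida domain protein made by these neurons.

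The sequences before the start sites of 4 members are shown because the genes were measured together here and their start regions differ in base content. They are the 250 bases before the start that RefSeq's promoter table of mouse assembly GRCm38.p6 gives each gene, read 5′ to 3′ on the gene's strand, with CG dinucleotides in capitals. Rtp2 lies at chr16:23930795-23931044 (minus strand), Reep1 at chr6:71707431-71707680, Stoml3 at chr3:53488457-53488706 and Umodl1 at chr17:30954433-30954682 (plus strand). RefSeq's gene span begins further upstream for 2 of them, so the Reep1 stretch lies inside that span and the Umodl1 stretch ends inside it.
Rtp2: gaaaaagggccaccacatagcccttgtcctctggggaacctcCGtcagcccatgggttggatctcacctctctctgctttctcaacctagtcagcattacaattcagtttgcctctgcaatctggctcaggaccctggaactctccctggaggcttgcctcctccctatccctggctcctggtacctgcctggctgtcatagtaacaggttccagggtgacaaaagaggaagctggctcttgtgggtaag
Reep1: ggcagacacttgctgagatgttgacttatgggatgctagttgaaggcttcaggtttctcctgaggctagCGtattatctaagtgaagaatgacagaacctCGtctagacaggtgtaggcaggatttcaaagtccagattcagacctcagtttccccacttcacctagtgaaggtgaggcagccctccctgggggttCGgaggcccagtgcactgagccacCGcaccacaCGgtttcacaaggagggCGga
Stoml3: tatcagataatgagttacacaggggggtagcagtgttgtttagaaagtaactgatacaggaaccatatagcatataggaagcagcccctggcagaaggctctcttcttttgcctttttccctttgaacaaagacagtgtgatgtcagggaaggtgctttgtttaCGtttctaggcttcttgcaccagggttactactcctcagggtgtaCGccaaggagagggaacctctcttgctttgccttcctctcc
Umodl1: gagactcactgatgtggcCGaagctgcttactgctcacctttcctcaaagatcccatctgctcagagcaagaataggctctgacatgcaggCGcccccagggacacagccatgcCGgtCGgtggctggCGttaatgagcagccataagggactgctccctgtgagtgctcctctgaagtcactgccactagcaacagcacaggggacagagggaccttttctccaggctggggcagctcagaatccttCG

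The Rtp2 stretch held 1 CG dinucleotide and the Stoml3 stretch 2, against 6 in Reep1 and 6 in Umodl1. Their GC content was 54.8% for Rtp2, 53.2% for Reep1, 46.8% for Stoml3 and 57.6% for Umodl1. Over windows of 300 bases, which add 50 bases after the start, the counts were 1, 9, 4 and 7 in that order, and the median of all 32851 promoters in the table was 7. As few as 1 was found in 14.1% of them, so Rtp2 lay toward the low end. The palindromic motif of Ebf factors (TCCC, any 2 bases, GGGA; both strands) occurred in 0 of the 4 windows and in 0.904% of all promoters. TAATTA, a homeodomain core that reads the same on both strands, occurred in 0 of the 4 and in 5.29% of all. The absence of these letters concerns this window alone.

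The sort and the tissue were checked first. S100a5 itself was at 16.75 to 17.02 log2 on the vehicle GFP+ arrays and 15.79 to 16.31 on the vehicle GFP- arrays, and at 16.77 to 16.86 and 15.78 to 16.09 after octanol, so the fractions did not overlap. Omp, the olfactory marker protein of mature sensory neurons, lay between 17.98 and 18.24 log2 on every array, and its 4 groups overlapped. Its signal ranked 2 to 5 from the top on every array, and fraction differences were small in general at such signals. The 13 measured markers of mature neurons had a summed signal of 20.39 to 20.43 log2 on vehicle GFP+ arrays and 20.11 to 20.23 on vehicle GFP- arrays (20.38 to 20.46 and 20.05 to 20.19 after octanol). Both fractions thus carried high signals of mature neuron genes. Markers of immune cells separated them: 4 neutrophil genes summed to 9.74 to 11.34 log2 in vehicle GFP+ and 18.43 to 19.07 in vehicle GFP- arrays, with 11.09 to 14.12 and 18.74 to 19.38 after octanol. Array medians over all genes ran from 7.85 to 8.25 log2.

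Each of the 5 members was above background on 16 of 16 arrays, where background is 6.32 log2, the level under which 95% of 321 vomeronasal receptor genes lie. The signals of different genes come from different probes, so they are not ranked against each other as transcript amounts.

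**Figure D1:**
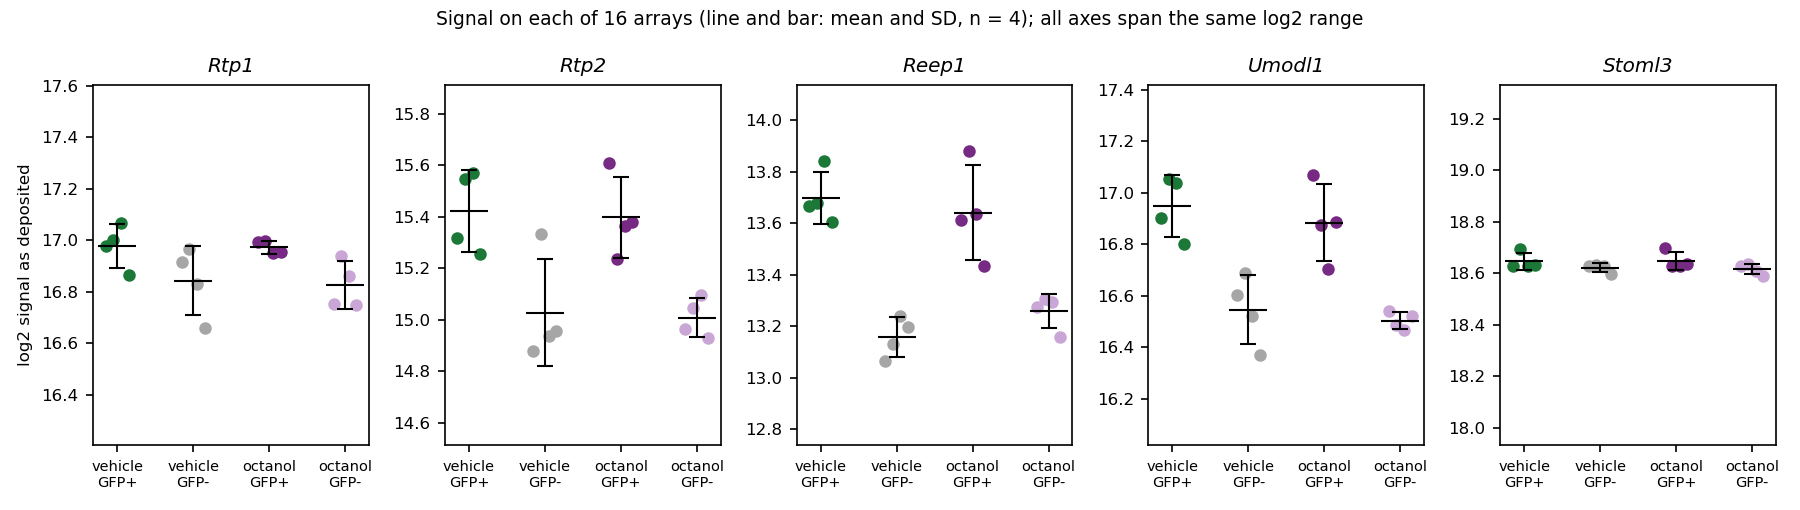
Deposited log2 signal of Rtp1, Rtp2, Reep1, Stoml3 and Umodl1 on each of 16 arrays, by group; points are arrays and the line and bar are the mean and SD (n = 4). All axes span the same log2 range, and on this scale the GFP+ arrays of Reep1 and Umodl1 lie above the GFP- arrays of the same exposure, while Stoml3 stays within 0.11 log2 throughout. Of all genes, 14.6% after vehicle and 15.7% after octanol are apart in this direction.

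After vehicle, 3 of the 5 members were higher in GFP+ than in GFP- cells on the deposited scale: Reep1 by 1.45-fold, Rtp2 by 1.32-fold and Umodl1 by 1.32-fold. Rtp1 and Stoml3 did not pass the test. After octanol the same 3 passed, at 1.30-fold for Reep1, 1.31-fold for Rtp2 and 1.30-fold for Umodl1. Over all genes, 28.2% were called after vehicle (14.7% higher and 13.5% lower in GFP+ cells) and 29.9% after octanol (16.7% higher and 13.2% lower) at the same threshold, an adjusted p under 0.05 in limma. The direction rests on how the arrays are set to a common scale. All 3 rises were also called after quantile normalization and after centring on array medians. With that centring 12759 of all 19505 genes were higher after vehicle and 11401 after octanol, and with quantile normalization 4563 and 4286. When arrays were centred on the odorant receptors or on mature neuron markers, 0 of the 3 rises were called. Few genes were higher on these scales: 630 of all 19505 after vehicle and 536 after octanol on receptors, and 514 and 564 on mature neuron markers. In such mixtures fewer cells of a type and less RNA per cell cannot be told apart.

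Rtp1 is the receptor transporter that most strongly brings odorant receptors to the surface of cultured cells. Its vehicle GFP+ arrays read 16.98, 17.00, 17.07 and 16.86 log2, and its vehicle GFP- arrays 16.92, 16.97, 16.83 and 16.66. The groups overlapped, since the lowest GFP+ array, replicate 4, lay below 2 GFP- arrays. The means were 16.98 ± 0.09 and 16.84 ± 0.13 log2 (SD, n = 4), a difference of 0.13 log2 (SE 0.09, 95% confidence interval -0.07 to 0.34, adjusted p = 0.297, limma). After octanol the GFP+ arrays read 16.99, 17.00, 16.95 and 16.96 and the GFP- arrays 16.75, 16.94, 16.86 and 16.75. Here the groups did not overlap, with 16.95 as the lowest GFP+ and 16.94 as the highest GFP- array; the groups of 15.7% of all genes were likewise apart in this direction. The difference of 0.15 log2 (SE 0.09, interval -0.06 to 0.35) had an adjusted p of 0.250 in limma. Within pools, the GFP+ array was higher in 8 of 8, by 0.03 to 0.24 log2 on the deposited scale. With arrays centred on odorant receptors the difference was -0.17 log2 after vehicle and -0.35 after octanol, and centred on mature neuron markers -0.22 and -0.26.

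Rtp2 is the paralog of Rtp1 with the same role. Its vehicle GFP+ arrays were at 15.32, 15.55, 15.57 and 15.26 log2 and its vehicle GFP- arrays at 14.88, 15.33, 14.94 and 14.96. One GFP- array, replicate 2 at 15.33, lay among the GFP+ arrays, and the other 3 lay below all of them. The means of 15.42 ± 0.16 and 15.03 ± 0.21 log2 differed by 0.40 (SE 0.11, 95% confidence interval 0.14 to 0.65, adjusted p = 0.0262, limma). After octanol the GFP+ arrays read 15.61, 15.23, 15.36 and 15.38 and the GFP- arrays 14.96, 15.04, 15.10 and 14.93, with no overlap. The groups of 15.7% of all genes were likewise apart in this direction. The difference was 0.39 log2 (SE 0.11, interval 0.14 to 0.64, adjusted p = 0.0271, limma). Both calls lay close to the threshold. Without vehicle replicate 1, 3 or 4 the vehicle call was lost (adjusted p = 0.0822, 0.106 and 0.0576, limma), and without octanol replicate 1 or 4 the octanol call was lost (0.116 and 0.0923).

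Reep1 had the largest difference of the 5 after vehicle. Its vehicle GFP+ arrays read 13.67, 13.68, 13.84 and 13.60 log2 and its vehicle GFP- arrays 13.06, 13.13, 13.24 and 13.20. Every GFP+ array lay above every GFP- array, as was so for 14.6% of all genes in this direction. The means of 13.70 ± 0.10 and 13.16 ± 0.08 log2 differed by 0.54 (SE 0.09, 95% confidence interval 0.33 to 0.75, adjusted p = 0.00196, limma), and the call held with any 1 vehicle replicate left out (adjusted p 0.00611 to 0.0119). After octanol the GFP+ arrays read 13.61, 13.88, 13.64 and 13.43 and the GFP- arrays 13.28, 13.30, 13.29 and 13.16, again with no overlap. This held for 15.7% of all genes. The difference was 0.38 log2 (SE 0.09, interval 0.17 to 0.59, adjusted p = 0.0136, limma). Without octanol replicate 2, whose GFP+ array was the highest, the adjusted p was 0.0610.

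Umodl1 carries a zona pellucida domain, a fold of secreted and membrane-bound extracellular proteins. Its vehicle GFP+ arrays read 16.90, 17.05, 17.04 and 16.80 log2 and its vehicle GFP- arrays 16.60, 16.69, 16.52 and 16.37. The groups did not overlap, as was so for 14.6% of all genes in this direction. The means of 16.95 ± 0.12 and 16.55 ± 0.13 log2 differed by 0.40 (SE 0.09, 95% confidence interval 0.19 to 0.61, adjusted p = 0.00999, limma), a call kept with any 1 vehicle replicate left out (adjusted p 0.0230 to 0.0435). After octanol the GFP+ arrays read 17.07, 16.88, 16.70 and 16.89 and the GFP- arrays 16.54, 16.49, 16.47 and 16.52. These did not overlap either, as for 15.7% of all genes, and the 4 GFP- arrays lay within 0.07 log2 of each other. The difference of 0.38 log2 (SE 0.09, interval 0.17 to 0.59) had an adjusted p of 0.0129 in limma, and 0.0567 without octanol replicate 1.

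Stoml3 gave almost one value everywhere. Its vehicle GFP+ arrays read 18.63, 18.69, 18.63 and 18.63 log2 and its vehicle GFP- arrays 18.63, 18.63, 18.63 and 18.60, with octanol GFP+ at 18.70, 18.63, 18.63 and 18.63 and octanol GFP- at 18.63, 18.63, 18.61 and 18.59. The groups overlapped and the range over 16 arrays was 0.11 log2. The fraction difference was 0.03 log2 after vehicle (95% confidence interval -0.16 to 0.21, adjusted p = 0.843, limma) and 0.03 after octanol (interval -0.16 to 0.22, adjusted p = 0.800). The Stoml3 probe set held the highest signal of all genes on 16 of 16 arrays, and 4 arrays shared the value 18.6288. Stom, the gene of stomatin itself, was among the 5 highest signals on each array, and its range was 0.18 log2. Whether the signal was saturated was not tested.

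Fraction differences were smaller for genes of high signal in general. In 9648 genes with a mean under 8 log2 the median size of the difference after vehicle was 0.27 log2, and in 6570 genes from 8 to 12 it was 0.28. It was 0.19 in 2367 genes from 12 to 14, where Reep1 lies, and 0.18 in 768 genes from 14 to 16, where Rtp2 lies. For 106 genes from 16 to 17, the range of Rtp1 and Umodl1, it was 0.15, and for 46 genes at 17 or more, with Stoml3, it was 0.08. Called in either direction after vehicle were 26.7% from 12 to 14, 26.0% from 14 to 16, 17 of 106 genes from 16 to 17 and 8.7% from 17 on. Set against genes of like signal, Reep1, Rtp2 and Umodl1 had differences of more than the median size in both exposures, and Rtp1 and Stoml3 did not.

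**Figure D2:**
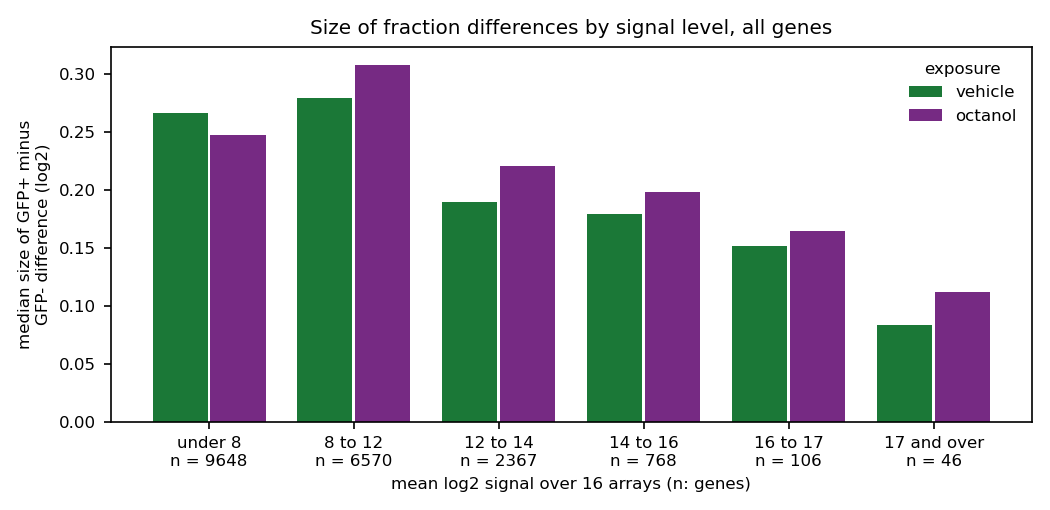
Median size of the GFP+ minus GFP- difference (log2) over all genes, in 6 classes of mean log2 signal over 16 arrays, after vehicle and after octanol; bars start at 0 and n is the number of genes. After vehicle the median falls from 0.28 log2 for genes from 8 to 12 to 0.08 for genes at 17 or more.

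Each member was also compared between the 2 fractions taken to come from the same pool, a pairing inferred from the number of mice. Over 8 pools the GFP+ minus GFP- difference was 0.46 ± 0.14 log2 for Reep1, 0.39 ± 0.18 for Rtp2, 0.39 ± 0.10 for Umodl1 and 0.14 ± 0.09 for Rtp1 (SD, n = 8). These 4 were higher in GFP+ in 8 of 8 pools, as were 17.9% of all genes, and the exact 2-sided sign-flip permutation p of each was 0.00781, the smallest that 8 pools can give. For Stoml3 the difference was 0.03 ± 0.03 log2, higher in 6 of 8 pools (exact sign-flip p = 0.0469), within a scale that hardly moved. S100a5 differed by 0.84 ± 0.21 log2 over the same 8 pools and Omp by 0.09 ± 0.08. Averaged over pools, the members' differences lay below that of the reporter's own gene, but in the third vehicle pool S100a5, at 0.43 log2, was below Rtp2, Reep1 and Umodl1.

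Differences of members against each other do not depend on the scaling of an array by a constant. The fraction difference of Reep1 exceeded that of Rtp1 in 8 of 8 pools, by 0.32 ± 0.19 log2 (SD, n = 8). Rtp2 exceeded Rtp1 by 0.25 ± 0.12 and Umodl1 exceeded it by 0.25 ± 0.07, each in 8 of 8 pools. The paralogs Rtp1 and Rtp2 thus separated unequally between the fractions, and they lie in different signal classes, 16 to 17 log2 for Rtp1 and 14 to 16 for Rtp2. Among Rtp2, Reep1 and Umodl1 there was no steady order: Rtp2 exceeded Reep1 in 3 of 8 pools, Rtp2 exceeded Umodl1 in 5 and Reep1 exceeded Umodl1 in 5.

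**Figure D3:**
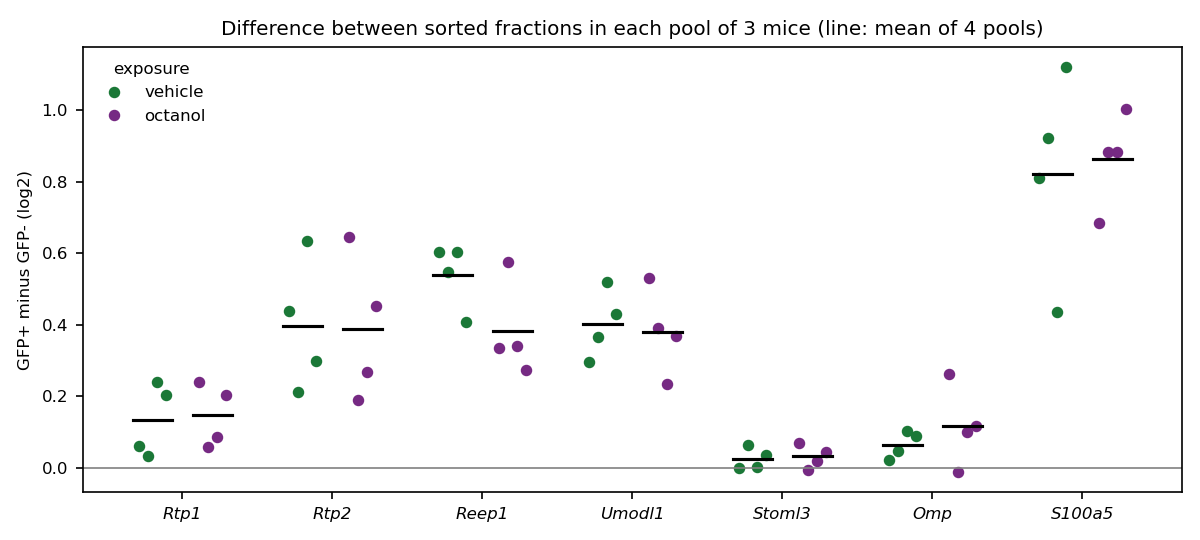
GFP+ minus GFP- difference (log2) in each pool of 3 mice for the 5 members and for S100a5 and Omp, vehicle and octanol pools side by side; points are pools and lines the means of 4. On the deposited scale all 8 pools of Rtp1, Rtp2, Reep1 and Umodl1 lie above 0, and centring on odorant receptors or mature neuron markers moves the values down.

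The arrays can be set to a common scale in several ways, and the members' values moved with it. On the deposited scale the median difference of all genes was 0.13 log2 after vehicle and 0.14 after octanol. Centred on each array's own median over genes, the median gene differed by 0.46 and 0.41. Here 5 of 5 members were called higher in both exposures, as were 12759 and 11401 of all 19505 genes. Centred on the median of odorant receptors, the median gene differed by -0.17 after vehicle and -0.36 after octanol. On that scale Reep1 was at 0.24 log2, Rtp2 and Umodl1 both at 0.10, Rtp1 at -0.17 and Stoml3 at -0.28 after vehicle, with 0 of 5 called. After octanol Rtp1 was at -0.35 log2 and Stoml3 at -0.47, and both were called lower (adjusted p = 0.0215 and 0.00625, limma), as were 8740 of all 19505 genes. For Stoml3, whose deposited signal hardly varied, this value is the deposited 0.03 less what the centring subtracts from every gene. On the same scale Rtp2, Reep1 and Umodl1 were at -0.11, -0.12 and -0.12 after octanol and were not called. Centred on 13 mature neuron markers, 0 of 5 were called in either exposure, and Reep1 was at 0.18 after vehicle and -0.025 after octanol. Quantile normalization gave 0.52 and 0.32 for Reep1, 0.39 and 0.38 for Rtp2, and 0.28 and 0.29 for Umodl1, all 3 called in both exposures. It called 4563 and 4286 of all 19505 genes higher. Centred on receptors, 630 of all 19505 genes were called higher after vehicle and 536 after octanol. With mature neuron markers these counts were 514 and 564, and the median gene differed by -0.23 and -0.27. Relative to the odorant receptors and to other genes of mature neurons, then, a rise of the transport and cilia genes in GFP+ cells was not called, on scales where few genes were called higher. S100a5, on which the sort rests, was mostly uncalled there too. Centred on receptors it was at 0.52 log2 after vehicle (adjusted p = 0.0234, limma) and 0.37 after octanol (0.0609). Centred on mature neuron markers it was at 0.46 in both (adjusted p = 0.0691 and 0.0679, limma). Its estimate stayed above those of the members there. Rtp2, Reep1 and Umodl1 were at 0.04, 0.18 and 0.05 after vehicle and at -0.017, -0.025 and -0.026 after octanol. Of 5 genes raised by activity in these neurons, S100a5 included, 3 were called higher in each exposure on that scale.

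**Figure D4:**
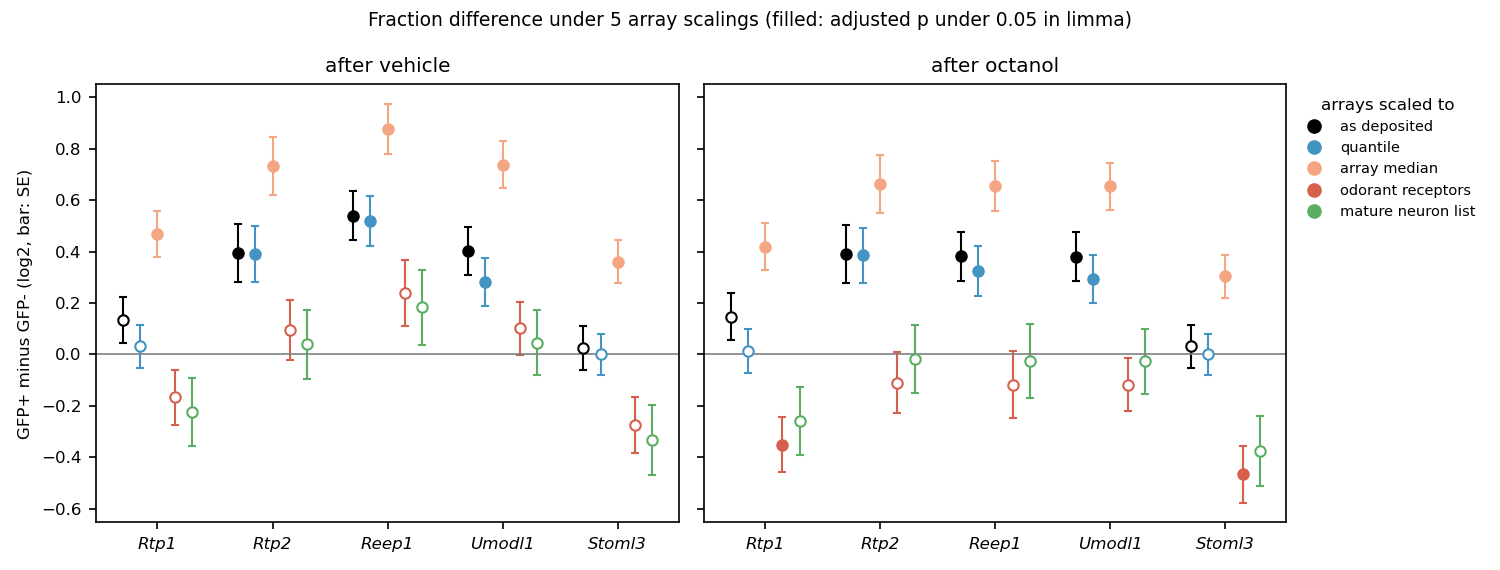
GFP+ minus GFP- difference of the 5 members (log2, bar SE) under 5 scalings of the arrays, after vehicle and after octanol; filled points have an adjusted p under 0.05 in limma. Values centred on array medians lie highest, and those centred on odorant receptors or mature neuron markers lie lowest and cross 0.

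Octanol did not change any member past the threshold in either fraction, and the groups overlapped for all 5; they did not for 2.21% of all genes in GFP+ and 2.57% in GFP- cells. In GFP+ cells octanol minus vehicle was -0.06 log2 for Reep1 (95% confidence interval -0.33 to 0.22), -0.06 for Umodl1 (-0.33 to 0.20) and -0.02 for Rtp2 (-0.31 to 0.26). For Rtp1 the interval was -0.22 to 0.21 and for Stoml3 -0.21 to 0.21. In GFP- cells Reep1 was at 0.10 log2 (interval -0.14 to 0.34, adjusted p = 0.982, limma), Umodl1 at -0.04 (-0.29 to 0.21), Rtp2 at -0.02 (-0.31 to 0.27) and Rtp1 at -0.02 (-0.28 to 0.24). On the deposited scale, changes above 0.34 log2 in either direction lie outside all of these intervals. With arrays centred on odorant receptors the GFP- values were higher, 0.26 log2 for Reep1 (SE 0.15), 0.14 for Rtp1, 0.14 for Rtp2, 0.15 for Stoml3 and 0.11 for Umodl1, all uncalled, so that bound does not hold there. Over all genes limma called 0 of 19505, or 0.0%, in GFP+ cells and 0 in GFP- cells, with 727 and 894 genes at an unadjusted p under 0.05 (3.73% and 4.58%).

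The fraction difference itself was also compared between the exposures. Reep1 had the widest gap, 0.54 log2 after vehicle against 0.38 after octanol, a change of -0.16 (SE 0.13, 95% confidence interval -0.46 to 0.14, adjusted p = 0.998, limma). For Rtp1 the change was 0.01 (interval -0.28 to 0.30), for Rtp2 -0.01 (-0.36 to 0.35), for Stoml3 0.01 (-0.26 to 0.27) and for Umodl1 -0.02 (-0.32 to 0.27). Centred on odorant receptors the changes were -0.36 for Reep1, -0.18 for Rtp1, -0.20 for Rtp2, -0.19 for Stoml3 and -0.22 for Umodl1, with adjusted p-values from 0.684 to 0.727 in limma. None of the 5 passed in limma, nor did any of 19505 genes, of which 886 had an unadjusted p under 0.05 (4.54%).

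**Figure D5:**
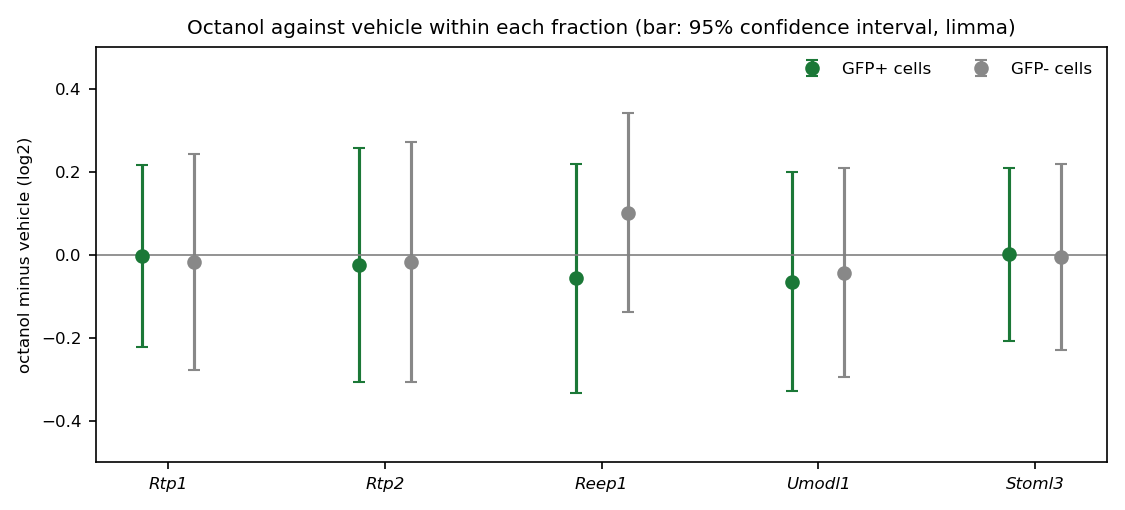
Octanol minus vehicle difference (log2) of the 5 members in GFP+ and in GFP- cells, with 95% confidence intervals from limma (4 arrays against 4). Every interval spans 0, and the largest estimate is 0.10 log2, for Reep1 in GFP- cells.

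Among relatives of the members, on the deposited scale, Rtp2 was the only one of 4 RTP genes called, with a list median of 0.04 log2 after vehicle and 0.21 after octanol. Rtp3 was above background on 0 of 16 arrays and Rtp4, an interferon-induced relative, on 9. Of 6 REEP genes, Reep1 was higher and 2 were lower. Reep5, a shaper of tubular endoplasmic reticulum, fell by 2.80 log2 in GFP+ cells after vehicle (SE 0.28, adjusted p = 4.59e-05, limma), from 9.20 ± 0.37 to 6.40 ± 0.42 log2. After octanol it fell by 2.24. Reep4, which clears endoplasmic reticulum from chromosomes in mitosis, fell by 1.12 (SE 0.16, adjusted p = 0.00063, limma) after vehicle. After octanol it fell by 1.40 log2. Both genes were called lower under all 5 scalings. Reep2 was above background on 0 arrays, Reep3 was at -0.20 and -0.16 log2 and Reep6 at 0.38 and 0.48, uncalled. The levels of immune markers moved with Reep4 and Reep5 between the fractions, as did progenitor and cell cycle markers, of which 4 of 4 measured were lower in GFP+ cells (summed signal 7.91 to 8.20 log2 in vehicle GFP+ and 11.29 to 12.79 in vehicle GFP- arrays). Their part in the result was not tested.

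Of 10 stomatin and SPFH domain genes measured, 1 was higher after vehicle and 2 after octanol, with list medians of 0.01 and 0.03 log2, where 14.7% and 16.7% of all genes were higher. Centred on array medians 8 of the 10 were higher after vehicle, as were 12759 of all 19505 genes. Centred on odorant receptors 8 of the 10 were lower after octanol, as were 8740 of all genes. Erlin2, a scaffold of the endoplasmic reticulum membrane, was at 0.42 log2 (SE 0.11, adjusted p = 0.0153, limma) and 0.38, and Stoml1 at 0.25, uncalled, and 0.39 (adjusted p = 0.0422). Erlin2 and Stoml1 were not called when arrays were centred on receptors or mature neuron markers, nor was Stoml1 after quantile normalization. Of 8 zona pellucida domain genes, Umodl1 was the 1 called in each exposure on the deposited scale, and the list medians were 0.26 and 0.13 log2. Umod, Gp2, Oit3 and Cuzd1 were above background on 0 arrays and Tecta on 1, so the medians rest in part on undetected genes.

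The steps that follow the receptor were read from 12 genes of odour transduction. Of these, 5 were higher in GFP+ cells after vehicle and 7 after octanol, 0 were lower, and the medians were 0.29 and 0.31 log2, against 0.13 and 0.14 for all genes. Pde1c, the calmodulin-dependent phosphodiesterase of the cilia, was at 0.67 log2 after vehicle (SE 0.10, adjusted p = 0.000532, limma) and 0.73 after octanol. Slc24a4, the exchanger that removes calcium after a response, was at 0.67 and 0.72, Ano2, the calcium-activated chloride channel, at 0.50 and 0.52, and Pde4a at 0.49 and 0.58. Adcy3, the cyclase of the pathway, was at 0.30 and 0.32, and both of its calls were lost after quantile normalization (adjusted p = 0.130 and 0.0939, limma). Cnga4 and Ric8b, named after their values were seen, were called after octanol alone, at 0.30 and 0.33 log2, and the difference between exposures was not called for them. Quantile normalization lost the call of Cnga4 (adjusted p = 0.0985, limma) and kept that of Ric8b (0.0199). Centred on odorant receptors, 2 of the 12 were higher after vehicle and 2 lower after octanol, and centred on mature neuron markers 0 were called. Of all 19505 genes centred on receptors, 630 were higher after vehicle and 8740 lower after octanol. This list shares 7 genes with the mature neuron list, of which 6 of 13 were higher and 1 lower after vehicle.

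Genes of the steps that precede the transporters were read next, against the 14.7% and 16.7% of all genes called higher on the deposited scale. Of 11 measured genes of membrane protein folding in the endoplasmic reticulum, 1 was higher after vehicle, Dnajb11, a co-chaperone of the lumen, at 0.36 log2 (SE 0.10, adjusted p = 0.0292, limma), and 2 after octanol, Dnajb11 at 0.39 and Emc1, of the membrane protein insertion complex, at 0.36. Of 11 genes of COPII vesicles, which carry cargo out of the endoplasmic reticulum, 2 were higher in each exposure: Sec24d, a cargo-binding coat subunit, at 0.49 and 0.81 log2, and Sec23b at 0.29 and 0.30. On the deposited scale 0 genes of either list were called lower. Centred on array medians, 11 and 10 of the 11 folding genes and 11 and 11 of the COPII genes were higher after vehicle and octanol. So were 12759 and 11401 of all 19505 genes. Centred on odorant receptors 8 folding and 4 COPII genes were lower after octanol, as were 8740 of all genes. Of Dnajb11, Emc1, Sec24d and Sec23b, Sec24d after octanol was the only one still called higher with arrays centred on receptors or on mature neuron markers, at 0.31 and 0.40 log2. Quantile normalization lost the octanol call of Sec23b (adjusted p = 0.0683, limma).

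Of 10 genes of receptor feedback and the unfolded protein response, 1 was higher after vehicle, Trib3, a pseudokinase of that response, at 0.54 log2 (SE 0.17, adjusted p = 0.042, limma). It was at 0.19 and uncalled after octanol. After octanol 2 were higher, Ppp1r15a at 0.45 and Atf5 at 0.28 log2 (adjusted p = 0.0499 for Atf5). The list medians were -0.01 and -0.02. Of 10 transcription factor genes of mature sensory neurons, 0 were called after vehicle and Ebf2 was called after octanol, at 0.31 log2, with medians of 0.11 and 0.14. With arrays centred on receptors or mature neuron markers 0 of Trib3, Ppp1r15a, Atf5 and Ebf2 were called. Quantile normalization lost the octanol calls of Atf5 and Ebf2 (adjusted p = 0.106 and 0.0991, limma) and called Ppp1r15a after vehicle as well (0.0135). Over the whole lists, centring on receptors gave 7 of 10 feedback and unfolded protein response genes and 6 of 10 transcription factor genes lower after octanol. On that scale 8740 of all 19505 genes were lower. Centring on array medians gave 8 of 10 of each higher after vehicle, with 12759 of all genes higher. For comparison, 5 of 5 genes raised by activity in these neurons were higher in GFP+ cells on the deposited scale, with medians of 1.27 and 1.39 log2. This list includes S100a5, on which the sort rests. Centred on receptors, 5 of the 5 were higher after vehicle and 4 after octanol. Centred on mature neuron markers 3 were higher in each exposure, with medians of 0.91 and 0.99 log2.

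Other cells of the mucosa moved with the fractions. Immature neuron markers had 0 higher and 8 lower of 12 in GFP+ cells after vehicle (summed signal 17.02 to 17.08 log2 in vehicle GFP+ and 17.55 to 17.83 in vehicle GFP- arrays). Sustentacular markers had 3 of 6 lower, Bowman gland markers 3 of 5, microvillar and tuft markers 6 of 6, myeloid markers 6 of 6 and lymphoid markers 4 of 4, each with 0 higher. With arrays centred on their own medians 2 immature neuron, 1 sustentacular and 1 Bowman gland marker were called higher after vehicle, as were 2 of the 5 horizontal basal cell markers described last. On that scale 12759 of all 19505 genes were called higher after vehicle. Myeloid markers summed to 10.28 to 10.85 log2 in vehicle GFP+ and 16.01 to 16.70 in vehicle GFP- arrays. Horizontal basal cell markers had 1 of 5 lower after vehicle, a call lost with arrays centred on their own medians, and 1 higher and 1 lower after octanol, and Krt5 and Trp63 were under background on all arrays. The called markers, apart from the one higher after octanol, were lower where Reep1, Rtp2 and Umodl1 were higher on the deposited scale, and their part in those differences was not tested.

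Across the 16 arrays the members' profiles were compared as a description, since the arrays share pools, fractions and scaling. Rtp2 and Umodl1 were the most alike pair of members (Pearson r = 0.898, and 0.650 after group means were removed). Reep1 and Stoml3 were the least alike, at 0.434 and -0.0755. Rtp1 and Rtp2 had r = 0.773 (0.542 within groups) and Reep1 and Umodl1 0.791, which was -0.0074 within groups. The likeness of Reep1 to Umodl1 thus followed the groups, whereas that of Rtp2 to Umodl1 was also present among arrays of a group.

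The genes of highest r to Rtp1 were Pcyox1 (0.947), Ap1g1 (0.934), a subunit of the clathrin adaptor of the Golgi, and Rap1gds1. For Rtp2 they were Zdhhc5 (0.951), a palmitoyltransferase, Rufy3 (0.939) and Tspyl1. For Umodl1 they were Slc4a4 (0.961), a bicarbonate transporter, Sv2b (0.957), a synaptic vesicle protein, and Dnajb14 (0.953). Reep1 was most like Abi2 (0.936), Dnajb4 (0.936) and Itpkb (0.935), and Stoml3 most like Dld (0.898), Tmem135 (0.890) and Reg4 (0.884), over its range of 0.11 log2.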

How the data were processed

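Gene expression was measured on 16 Clariom S arrays. The deposited log2 signals were computed by the authors with Affymetrix Expression Console, per the submitters' processing notes; version, settings and normalization between arrays: not given in the sources used here. The values were taken as deposited, with no counts behind them, so precision rests on the 4 arrays of a group and on a variance prior that limma shares over all genes. For Stoml3 after vehicle the SE was 0.084 log2, and 0.029 with a prior trended by signal. For Rtp1 it was 0.091, and 0.049 with the trend. Of 28846 probe sets, 19572 carried 1 gene symbol, all matched by Entrez number to RefSeq's table of GRCm38.p6; the highest-mean probe set was taken per gene (67 left out), giving 19505 genes.

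Fractions were compared with limma 3.58.1 in R 4.3.3 (lmFit, eBayes, moderated, 2-sided) on 16 arrays, each pool being a fixed block, and exposures on 8 arrays per fraction, with Benjamini-Hochberg adjustment over 19505 genes and a threshold of 0.05. That 2 fractions with 1 number share a pool was inferred from 24 mice in pools of 3; their residuals from group means correlated at 0.0779 to 0.222, above 0.1 in 6 of 8, while octanol and vehicle arrays sharing a number, from different mice, correlated at 0.0582 to 0.332, so the check does not settle the pairing. Where pools were not separate mice, p-values measure the spread between arrays only.

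The members and gene lists were chosen with earlier results of these data known. Named are the members, the 3 genes most correlated with each, and up to 4 genes a list with the largest called vehicle differences; others were named after their values were seen. Some list genes were not analysed here and enter no count. The scripts were tested on simulated data. Alternatives were other scalings, a filter on dim genes, a trended prior, no block, probe set means and leaving out each replicate.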

Additional observations from a re-analysis of the deposited data

Results flagged for a closer look

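Of 30 sets of 4 values examined for a single value apart from the other 3, 4 stood out, where chance flags about 1 in 20. For Rtp2, vehicle GFP- replicate 2 was at 15.33 log2, with a gap of 0.830 of the range of its group. For Stoml3, vehicle GFP+ replicate 2 was at 18.69 log2 (0.938 of the range), vehicle GFP- replicate 4 at 18.60 (0.905) and octanol GFP+ replicate 1 at 18.70 (0.880). The Stoml3 gaps lie within a range of 0.11 log2 over all 16 arrays.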

How the results depend on the processing

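Scaling had the most effect on the members. After vehicle, 5 of 5 members were called with arrays centred on their own medians, 0 with arrays centred on odorant receptors and 0 centred on mature neuron markers, against 3 as deposited. After octanol the counts were 5, 2 (both lower) and 0. Centred on odorant receptors, the octanol fraction differences were -0.35 for Rtp1, -0.11 for Rtp2, -0.12 for Reep1, -0.47 for Stoml3 and -0.12 for Umodl1, and centred on mature neuron markers -0.017 for Rtp2, -0.025 for Reep1 and -0.026 for Umodl1. Genes called over the whole array numbered 14745 after vehicle and 13429 after octanol with arrays centred on their own medians, and 9276 after octanol centred on odorant receptors, and 52.2% and 55.9% of calls were higher as deposited against 65.0% and 63.4% after quantile normalization, 86.5% and 84.9% centred on medians, 12.6% and 5.78% centred on receptors and 10.3% in both centred on mature neuron markers. Leaving out 1 replicate gave 2 to 3 members called after vehicle and 1 to 3 after octanol, and 4024 to 4444 and 3969 to 5030 genes. A trended prior also called Rtp1 after octanol (adjusted p = 0.0372, limma).

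Without the replicate block the same 3 members were called in both exposures, with 4991 and 5280 genes called. With the replicate number as a block, octanol against vehicle gave 0 members and 0 genes in either fraction. Over 80 values for each comparison of exposures 0 were called, with lowest adjusted p-values of 0.970 in GFP+, 0.726 in GFP- and 0.684 for the fraction difference.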
